A study of Mus musculus with 8 samples.

Results

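The 9 genes that encode co-stimulatory ligands and related surface proteins of antigen-presenting cells were followed through RNA sequencing of mouse splenic B cells: Cd80, Cd86, Icosl, Cd40, Tnfsf4, Tnfsf9, Cd70, Cd83 and Cd48. They were chosen by symbol, out of 37583 gene identifiers counted in each library. The TLR group (2 libraries) was C57BL/6 B cells kept 3 days in culture with CpG ODN1668 (synthetic DNA sensed by the endosomal receptor TLR9) and given LPS, which TLR4 senses, together with PMA, which switches on protein kinase C, and the calcium ionophore ionomycin for the closing 5 hours. The CpG group (3 libraries) had the 3 days of CpG alone, and the naive group (3 libraries) was B cells labelled naive. No group is labelled as cultured without CpG, so CpG and the 3 days in culture cannot be told apart. Changes given below as with CpG compare CpG with naive libraries and carry both. The labels call both stimulated populations Bregs, that is regulatory B cells, and all 3 groups came from the same strain. No label says whether the libraries of a group came from separate mice or cultures, and each p-value therefore speaks only of the spread among these libraries, which may be technical.

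A T cell that meets its antigen on a B cell needs further signals from surface ligands of that B cell. CD80 and CD86 are both ligands of the activating receptor CD28 and of the inhibitory receptor CTLA-4. ICOSL binds ICOS, which helper T cells of the follicle depend on. CD40 is the receptor through which a B cell receives help from CD40 ligand, and OX40L (Tnfsf4), 4-1BBL (Tnfsf9) and CD70 are ligands of the TNF superfamily that bind OX40, 4-1BB and CD27. CD83 marks activated B cells and dendritic cells and is known to keep CD86 and class II molecules at the surface by opposing the ubiquitin ligase MARCH1. In mice CD48 binds CD2 and CD244. In GRCm38 (GENCODE M21) Cd80 lies at chr16:38455561-38496335 and Cd86 on the other strand at chr16:36603869-36666081. Icosl lies at chr10:78069302-78083913, Cd40 at chr2:165055627-165072948, Cd83 at chr13:43784775-43803132 and Cd48 at chr1:171682009-171705258. Tnfsf4 lies at chr1:161395409-161418410, Tnfsf9 at chr17:57105325-57107757 and Cd70 at chr17:57145997-57149777. Resting B cells are known to carry little CD80 and CD86 and to raise both after activation.

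Values of replicates are given in the order of their numbers. Levels are given as CPM (TMM-scaled read counts relative to library size). Gene totals ran from 15804311 to 20069272 counts per library, so that before TMM scaling 1 count was worth about 0.0498 to 0.0633 CPM. Changes are log2 fold changes from edgeR's quasi-likelihood test over all 8 libraries, ± an SE derived from the F statistic of that test. P-values were adjusted over 13964 tested genes, and a gene was called at an adjusted p below 0.05. The 3 comparisons share libraries and are not independent of each other. The files of replicate 1 have the prefix RCa1 and all others RCa18, with no label saying what it stands for, and every called change of a member had the same direction within each prefix. CPM are shares of a library, and in such bulk samples fewer cells of a type and less RNA per cell cannot be told apart. Of the 9 genes, 7 passed the filter on low counts. Tnfsf4 and Cd70 did not.

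With CpG, 1 of the 7 tested members rose (Cd83) and 2 fell (Cd86 and Icosl), so that 3 of 7 were called against 45.5% of all tested genes (23.5% higher and 21.9% lower). Between TLR and CpG libraries 1 rose (Cd86) and 3 fell (Cd80, Icosl and Cd48), against a background of 38.8% called (19.0% higher and 19.8% lower). Between TLR and naive libraries 2 rose (Cd83 and Cd86) and 3 fell (Icosl, Cd80 and Cd48), where 61.2% of all genes were called (31.6% higher and 29.7% lower). Over 7 genes these counts show nothing particular to the set, and the members took different courses. The libraries of the 2 groups did not overlap for 3 of the 7 with CpG against naive, for 6 of 7 with TLR against CpG and for 7 of 7 with TLR against naive, beside 56.0%, 59.3% and 78.1% of all tested genes. The median log2 fold change of the 7 was 0.12, -0.35 and -0.23 in these 3 comparisons, against 0.01, -0.02 and 0.01 over all tested genes.

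**Figure D1:**
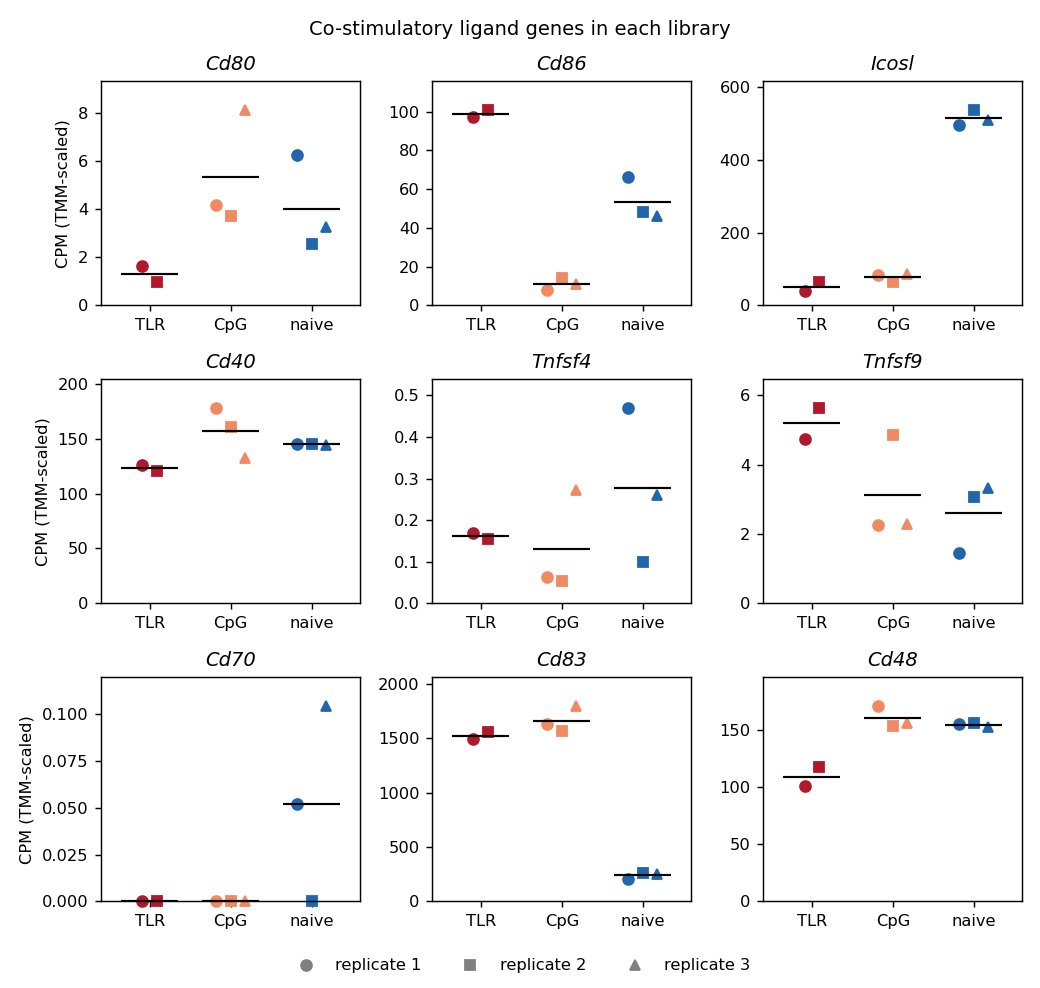
Level of each of the 9 genes in CPM (TMM-scaled, linear axes from 0, each gene on its own scale) in every TLR, CpG and naive library; points are libraries, symbols mark the replicate number and bars the group mean. Cd86 is lowest in the CpG libraries and highest in the TLR libraries, Icosl is high in naive libraries alone, and Cd83 is high in both stimulated groups.

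Cd86 fell with CpG and was far higher in TLR libraries. It stood at 97.3 and 101 CPM in TLR replicates 1 and 2, at 7.87, 14.3 and 10.9 CPM in the 3 CpG libraries, and at 66.0, 48.4 and 46.3 CPM in the 3 naive libraries. No library of one group reached the range of another. CpG libraries were 4.84-fold below naive ones (log2 fold change -2.27 ± 0.22, edgeR adjusted p = 4.07e-05). TLR libraries were 8.93-fold above CpG ones (3.16 ± 0.23, edgeR adjusted p = 1.30e-05), which placed Cd86 at rank 101 from the top among the fold changes of the 13964 tested genes. They were also 1.85-fold above naive libraries (0.89 ± 0.22, edgeR adjusted p = 0.00619). None of these 3 calls was lost under any alternative that was run.

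Cd80, the other ligand of CD28 and CTLA-4, was scarce in every library and did not follow Cd86. Its level was 1.64 and 0.981 CPM in TLR replicates 1 and 2 (29 and 19 counts). It was 4.19, 3.74 and 8.13 CPM in CpG replicates 1 to 3 (65, 70 and 149 counts), and 6.25, 2.55 and 3.29 CPM in naive replicates 1 to 3 (120, 51 and 63 counts). CpG and naive libraries overlapped, and both TLR libraries lay below all the others. TLR libraries were 4.08-fold below CpG ones (log2 fold change -2.03 ± 0.53, edgeR adjusted p = 0.0132; 0.103 without TLR replicate 2). They were 3.07-fold below naive ones (-1.62 ± 0.53, edgeR adjusted p = 0.0223), a call that was lost without TLR replicate 2 (adjusted p = 0.144), without naive replicate 1 (0.0612) and in the RCa18 libraries alone (0.0722). The change with CpG was not called (0.41 ± 0.43, 95% interval -0.54 to 1.36, edgeR adjusted p = 0.457), and its sign turned without CpG replicate 3 (-0.024). Within the RCa1 pair Cd80 was lower with CpG (log2 ratio -0.58), and within the RCa18 libraries it was higher (1.02).

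The ratio of Cd86 to Cd80 counts, which does not depend on the scaling of the libraries, shows how far apart these ligands of the same receptors moved. There were 59.2 and 103 Cd86 counts for each Cd80 count in TLR replicates 1 and 2, 1.88, 3.83 and 1.34 in the 3 CpG libraries, and 10.6, 19.0 and 14.1 in the 3 naive libraries. The 3 groups did not overlap. On the log2 scale the mean ratio was 6.28 ± 0.56 in TLR (SD, n = 2), 1.09 ± 0.77 in CpG (n = 3) and 3.82 ± 0.42 in naive libraries (n = 3). The difference of TLR minus CpG was 5.19, of CpG minus naive -2.73 and of TLR minus naive 2.46, each with p = 0.1 in a two-sided exact permutation test, the smallest p that groups of this size allow.

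**Figure D2:**
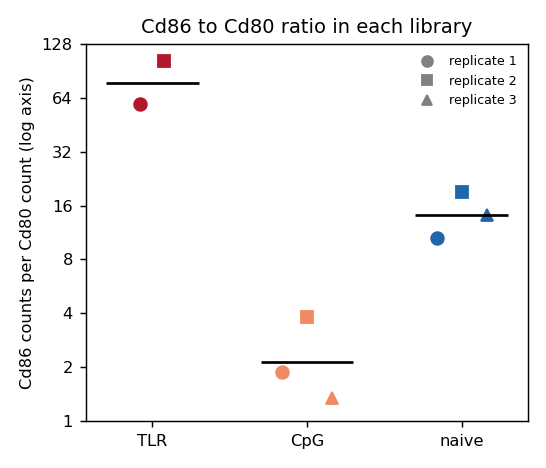
Cd86 counts per Cd80 count in each TLR, CpG and naive library on a log axis; symbols mark the replicate number and bars the mean of the log2 ratios. TLR libraries lie at 59.2 and 103, those with CpG from 1.34 to 3.83 and naive ones from 10.6 to 19.0.

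Icosl, the ligand of ICOS, lost most of its level with CpG and did not regain it. It stood at 38.7 and 64.3 CPM in TLR replicates 1 and 2, at 83.6, 65.7 and 87.5 CPM in the 3 CpG libraries, and at 497, 537 and 511 CPM in the 3 naive libraries. All 5 stimulated libraries were far below the naive ones, while TLR replicate 2 lay just under CpG replicate 2. Icosl was 6.53-fold lower in CpG than in naive libraries (log2 fold change -2.71 ± 0.19, edgeR adjusted p = 8.38e-06) and 10.0-fold lower in TLR than in naive libraries (-3.32 ± 0.23, edgeR adjusted p = 2.63e-06). The further fall between TLR and CpG libraries was small (-0.62 ± 0.21, edgeR adjusted p = 0.0408). In edgeR that call was lost without CpG replicate 1 (adjusted p = 0.0816), CpG replicate 3 (0.103), naive replicate 2 (0.0570), naive replicate 3 (0.0560) or TLR replicate 1 (0.305, log2 fold change -0.30), with only the groups compared (0.0742) and in the RCa18 libraries alone (0.341). Within prefixes the log2 ratio of TLR to CpG was -1.11 for RCa1 and -0.25 for RCa18.

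Cd83, the activation marker that opposes MARCH1, rose with CpG and was high in TLR libraries too. It stood at 1490 and 1553 CPM in TLR replicates 1 and 2, at 1628, 1562 and 1793 CPM in the 3 CpG libraries, and at 207, 265 and 255 CPM in the 3 naive libraries. Every stimulated library had several times the level of every naive one, and both TLR libraries lay just below the CpG ones. The rise with CpG was 6.86-fold (log2 fold change 2.78 ± 0.14, edgeR adjusted p = 1.10e-06), and TLR libraries were 6.28-fold above naive ones (2.65 ± 0.15, edgeR adjusted p = 7.12e-07). Between TLR and CpG libraries the change was -0.13 ± 0.15 (95% interval -0.45 to 0.20, edgeR adjusted p = 0.531).

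March1, which encodes the ligase that removes CD86 from the surface of B cells, fell at each step. It averaged 22.9 ± 5.30 CPM in TLR (SD, n = 2), 96.5 ± 5.65 CPM in CpG (n = 3) and 321 ± 62.1 CPM in naive libraries (n = 3). It fell by 2.07 ± 0.20 on the log2 scale in TLR against CpG libraries (edgeR adjusted p = 5.62e-05) and by 1.73 ± 0.17 with CpG against naive (edgeR adjusted p = 4.72e-05). Its relative March8, named as the other gene of that list, was at 4.19 ± 1.60 CPM in TLR, 3.43 ± 1.43 CPM in CpG and 3.48 ± 2.10 CPM in naive libraries and was not called.

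Cd40, the receptor for T cell help, held nearly the same level throughout. It stood at 126 and 121 CPM in TLR replicates 1 and 2, at 178, 160 and 132 CPM in the 3 CpG libraries, and at 145, 145 and 144 CPM in the 3 naive libraries. The TLR libraries were the lowest, and the CpG libraries spread on both sides of the naive ones. The change with CpG was 0.12 ± 0.12 (95% interval -0.15 to 0.38, edgeR adjusted p = 0.448). Between TLR and CpG libraries it was -0.35 ± 0.13 and not called (edgeR adjusted p = 0.0640), although it was called as lower by DESeq2 (adjusted p = 0.0354), with a prefix term (0.0341) and without CpG replicate 3 (0.0142). Between TLR and naive libraries it was -0.23 ± 0.13 (edgeR adjusted p = 0.155, or 0.0301 with only the groups compared).

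The 3 ligands of the TNF superfamily had few or almost no counts. Tnfsf9, which encodes 4-1BBL, stood at 4.76 and 5.63 CPM in TLR replicates 1 and 2, at 2.26, 4.86 and 2.29 CPM in the 3 CpG libraries, and at 1.46, 3.06 and 3.34 CPM in the 3 naive libraries. Both TLR libraries were above all naive ones, and CpG replicate 2 lay between the TLR libraries. No change was called: 0.26 ± 0.41 with CpG against naive (edgeR adjusted p = 0.627; -0.19 without CpG replicate 2 and -0.03 without naive replicate 1), 0.72 ± 0.45 with TLR against CpG (adjusted p = 0.231) and 0.99 ± 0.45 with TLR against naive (95% interval -0.01 to 1.98, adjusted p = 0.0794). In edgeR the last was called when the prefix entered the fit (adjusted p = 0.0226) and without CpG replicate 2 (0.0482). Of the 1290 exon bases of Tnfsf9, 192 overlap the noncoding gene Gm11110 on the other strand, and the files' names say that strand was ignored in counting. Gm11110 had 34 and 32 counts in TLR replicates 1 and 2, 33, 115 and 50 in the 3 CpG libraries, and 42, 38 and 41 in naive replicates 1 to 3. CpG replicate 2 was the highest CpG library for both genes, whereas the TLR libraries were high for Tnfsf9 alone. The part of the overlap in these counts was not tested.

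Tnfsf4, the gene of OX40L, had 3 and 3 counts in TLR replicates 1 and 2, 1, 1 and 5 in the 3 CpG libraries, and 9, 2 and 5 in the 3 naive libraries. Pooled over each group this is 0.162 CPM in TLR (exact 95% Poisson interval 0.0595 to 0.353), 0.133 in CpG (0.0536 to 0.274) and 0.274 in naive libraries (0.157 to 0.446), and the 3 intervals overlap. Cd70 had no count in any TLR or CpG library and 1, 0 and 2 counts in the 3 naive libraries. A count of 0 allows up to 0.0810 CPM over the TLR group and 0.0571 CPM over the CpG group (3 counts each), so no change of Cd70 was detectable at this depth. Such intervals and limits cover counting error only.

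Cd48, the ligand of CD2 and CD244, was level in naive and CpG cells and lower in TLR libraries. It stood at 101 and 117 CPM in TLR replicates 1 and 2, at 171, 154 and 156 CPM in the 3 CpG libraries, and at 155, 156 and 152 CPM in the 3 naive libraries. Both TLR libraries were below all 6 others. TLR libraries were lower than CpG ones (log2 fold change -0.55 ± 0.11, edgeR adjusted p = 0.00375, or 0.0503 without TLR replicate 1) and lower than naive ones (-0.50 ± 0.11, edgeR adjusted p = 0.00349). The change with CpG was 0.05 ± 0.10 (95% interval -0.17 to 0.27, edgeR adjusted p = 0.699).

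**Figure D3:**
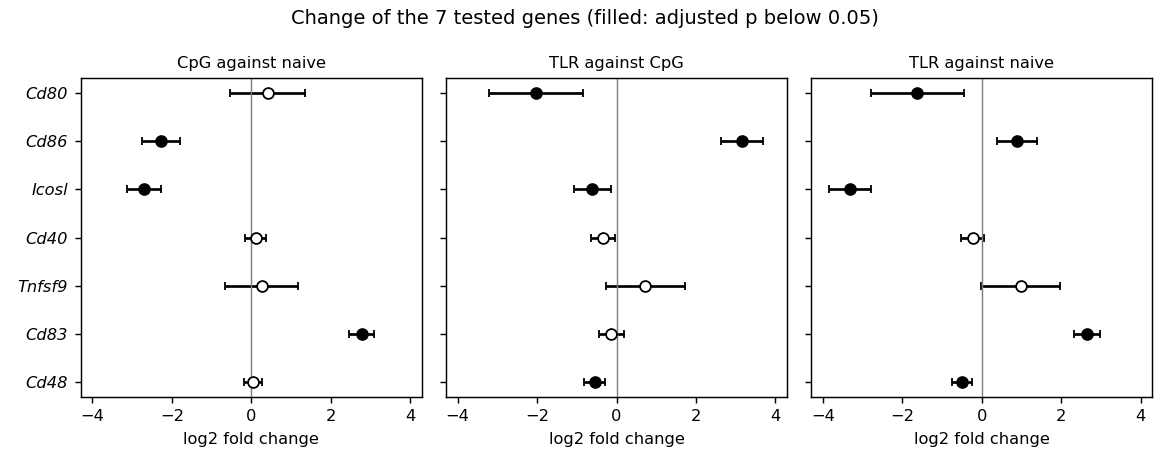
Log2 fold change of the 7 tested genes in each comparison (CpG against naive, then TLR against either of these groups). Bars are 95% intervals derived from the edgeR fit and filled points have an adjusted p below 0.05. Cd86 lies at -2.27 with CpG and at 3.16 with TLR against CpG, while Cd80 lies at 0.41 and -2.03.

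Promoter sequences are shown for Cd80, Icosl and Cd48, the only members for which a window was available. They were also the members called as lower in TLR than in CpG libraries, but were not chosen for it. No window of another member can be set beside them. RefSeq (GRCm38.p6) windows of 250 bases before to 50 after the annotated start were matched by symbol for these 3 of the 9 genes. The deposited counts were made with build mm9 and carry no coordinates. In the lines below, capitals mark every match, on either strand, to a kappa B like pattern (3 G, any 5 bases, 2 C), to the AP-1 like TGANTCA, to the cyclic AMP response element TGACGTCA or to the NFAT core GGAAA. All 3 windows are on the + strand, at chr16:38458683-38458982 for Cd80, chr10:78069118-78069417 for Icosl and chr1:171681742-171682041 for Cd48. The Cd80 window lies wholly inside the gene, which begins at base 38455561, so its start is an internal one. The windows of Icosl and Cd48 span the first base of the gene.
Cd80: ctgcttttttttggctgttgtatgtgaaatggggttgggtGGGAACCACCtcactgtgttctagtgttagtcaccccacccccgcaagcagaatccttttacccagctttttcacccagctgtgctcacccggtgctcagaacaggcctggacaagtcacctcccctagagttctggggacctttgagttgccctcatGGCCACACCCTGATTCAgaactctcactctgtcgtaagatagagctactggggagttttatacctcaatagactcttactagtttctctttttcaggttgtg
Icosl: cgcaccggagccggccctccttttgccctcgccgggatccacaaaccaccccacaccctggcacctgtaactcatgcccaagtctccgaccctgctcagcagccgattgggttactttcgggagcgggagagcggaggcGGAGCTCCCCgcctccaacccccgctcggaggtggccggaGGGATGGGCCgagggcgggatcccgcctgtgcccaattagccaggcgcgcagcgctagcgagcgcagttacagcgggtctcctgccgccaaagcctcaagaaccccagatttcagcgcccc
Cd48: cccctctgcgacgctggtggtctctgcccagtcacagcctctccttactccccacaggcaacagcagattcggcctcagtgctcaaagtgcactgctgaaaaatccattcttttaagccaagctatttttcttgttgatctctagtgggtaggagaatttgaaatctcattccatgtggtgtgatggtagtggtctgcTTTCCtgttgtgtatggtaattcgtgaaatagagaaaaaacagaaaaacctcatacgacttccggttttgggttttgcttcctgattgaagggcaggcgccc
The Cd80 window held 2 kappa B like matches, at positions -210 and -52 relative to the start, and an AP-1 like match, TGATTCA, at position -42, which adjoins the second of them. The Icosl window held 2 kappa B like matches, at -111 and -71, and the Cd48 window only an NFAT core, at -52. Of 32851 promoter windows in the table, 50.8% held the kappa B like pattern, 7.81% the AP-1 like one, 1.79% the cyclic AMP response element and 61.3% the NFAT core. A match describes these letters and shows no binding.

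Divided by the union of exon lengths, the levels can be compared between genes. In TLR libraries the order of the mean CPM per kilobase was Cd83 (592 ± 17.4; SD, n = 2), Cd48 (91.7 ± 9.70), Cd40 (36.2 ± 1.16), Cd86 (27.0 ± 0.649), Icosl (11.1 ± 3.92), Tnfsf9 (4.02 ± 0.478) and Cd80 (0.354 ± 0.126), and no neighbours among these overlapped. In CpG libraries it was Cd83 (646 ± 46.4; SD, n = 3), Cd48 (135 ± 7.76), Cd40 (46.0 ± 6.69), Icosl (17.1 ± 2.52), Cd86 (3.01 ± 0.881), Tnfsf9 (2.43 ± 1.16) and Cd80 (1.45 ± 0.652). There Cd86 overlapped with Tnfsf9, and Tnfsf9 with Cd80. In naive libraries it was Cd48 (130 ± 1.70; SD, n = 3), Icosl (111 ± 4.38), Cd83 (94.2 ± 12.0), Cd40 (42.5 ± 0.150), Cd86 (14.6 ± 2.95), Tnfsf9 (2.03 ± 0.786) and Cd80 (1.09 ± 0.528), with an overlap of Tnfsf9 and Cd80. Tnfsf4 and Cd70 came last in each group, at or below 0.150 CPM per kilobase on average. Taking the longest transcript as the length put Icosl (183) ahead of Cd48 (130) in naive libraries and changed no other place.

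Seen as shares of the summed level per kilobase, 1 transcript dominated the stimulated libraries and 3 the naive ones. Cd83 made up 77.6 ± 0.860% of the sum in TLR (SD, n = 2), 75.9 ± 1.93% in CpG (n = 3) and 23.7 ± 2.31% in naive libraries (n = 3). Icosl made up 1.45 ± 0.456% in TLR, 2.00 ± 0.207% in CpG and 28.2 ± 0.240% in naive libraries. Cd86 made up 3.55 ± 0.0585% in TLR, 0.357 ± 0.118% in CpG and 3.71 ± 0.868% in naive libraries. The sum itself was 762 ± 30.9 CPM per kilobase in TLR, 851 ± 43.6 in CpG and 396 ± 13.5 in naive libraries.

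**Figure D4:**
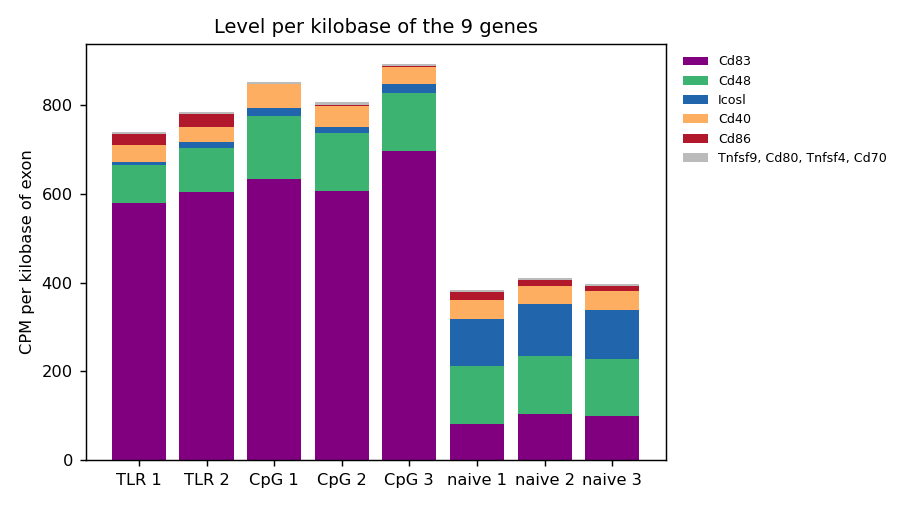
Stacked level of the 9 genes in CPM per kilobase of exon in each TLR, CpG and naive library. Cd83 fills most of each stimulated bar, while Cd48, Icosl and Cd83 share the naive bars.

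The genes whose course over the 8 libraries lay closest to a member's were found among protein-coding genes that averaged 8 CPM or more, by the root mean square difference of centred log2 levels. The measure describes likeness over libraries that share their groups and carries no test. Closest to Cd86 were Tnf (0.33), Sdc1 (0.36) and Cdk5r1 (0.48). Tnf, an inflammatory cytokine, averaged 47.8 CPM in TLR, 6.87 CPM in CpG and 23.8 CPM in naive libraries, and Sdc1, the plasma cell marker CD138, averaged 30.2, 4.84 and 22.9 CPM in the same groups. Among the 3 closest to Cd83 were Siah2 (0.17), a ubiquitin ligase, and Tmem107 (0.17). Closest to Icosl were Otud1 (0.22), a deubiquitinase, Brwd1 (0.24) and Phf1 (0.25), a Polycomb-associated factor. For Cd80 they were Gbp7 (0.32), Bphl (0.34) and Fam168a (0.35), and for Tnfsf9 they were Amd1 (0.20), Hsp90ab1 (0.22) and Cacybp (0.22). Cd40 had Park7, Rnaseh2c and Tmco6 at 0.0672 to 0.0737, and Cd48 had Map4k1, Anapc2 and Exoc6b at 0.0590 to 0.0627.

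Among the binding partners of the members, which are receptors except for Cd40lg, the gene of CD40 ligand, 8 of 9 were tested and Cd40lg was not. With CpG 2 rose and 3 fell, with TLR against CpG 3 rose and 2 fell, and with TLR against naive 2 rose and 3 fell (median log2 fold change -0.79, 0.96 and -0.51). That is 5 of 8 called each time, beside 45.5%, 38.8% and 61.2% of all tested genes in these comparisons. Ctla4, the inhibitory receptor of CD80 and CD86, averaged 99.6 ± 7.90 CPM in TLR, 28.5 ± 4.31 CPM in CpG and 0.880 ± 0.375 CPM in naive libraries, and rose 3.49-fold between TLR and CpG libraries (1.80 ± 0.21, edgeR adjusted p = 0.000154). Tnfrsf9, the receptor 4-1BB, averaged 12.1 ± 1.36 CPM in TLR, 0.304 ± 0.393 CPM in CpG and 0.603 ± 0.219 CPM in naive libraries. It rose by 5.23 ± 0.74 on the log2 scale with TLR against CpG (edgeR adjusted p = 0.000476), by 7.01 without CpG replicate 2 and by 4.59 in the RCa18 libraries alone. Cd2, a receptor of CD48, averaged 8.90 ± 2.07 CPM in TLR, 166 ± 26.7 CPM in CpG and 254 ± 11.3 CPM in naive libraries and was 18.7-fold lower in TLR than in CpG libraries (-4.22 ± 0.21, edgeR adjusted p = 2.67e-06). Cd244a, another receptor of CD48, averaged 5.64 ± 1.63 CPM in TLR, 30.9 ± 11.6 CPM in CpG and 8.65 ± 3.44 CPM in naive libraries, higher with CpG and lower again in TLR (edgeR adjusted p = 0.00233 and 0.00149). Cd28 and Cd27 were lower with CpG than in naive libraries (log2 fold change -3.22 ± 0.58 and -2.45 ± 0.43, edgeR adjusted p = 0.00165 and 0.00144). Summed T cell markers, Cd28 among them, were 22.7 and 24.1 CPM in TLR, 40.9 to 67.8 CPM in CpG and 57.9 to 79.8 CPM in naive libraries, and 7 of the 9 tested T cell markers fell with CpG. Lck, which averaged 22.2 CPM in TLR, 55.3 CPM in CpG and 54.6 CPM in naive libraries, made up most of each group's mean sum. Cd3e had no count in TLR, 4 in CpG and 96 in naive libraries, and Cd4 none, 7 and 152 in the same groups. Their part in the changes of these receptors was not tested.

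The list of other B7 family and B7-like genes also holds the receptors Btla and Tnfrsf14. Of its 7 tested genes, 2 rose and 3 fell with CpG (median log2 fold change 0.00). None rose and 6 fell with TLR against CpG (median -1.39) and with TLR against naive (median -1.34). Btla was among the 6 in both, and Tnfrsf14 with TLR against CpG only. Of all tested genes 21.9% fell with CpG, 19.8% with TLR against CpG and 29.7% with TLR against naive. All 5 B cell markers described at the end also fell in both TLR comparisons, and their part in these values was not tested. Vsir, the checkpoint ligand VISTA, averaged 23.8 ± 6.82 CPM in TLR, 99.6 ± 8.24 CPM in CpG and 46.1 ± 19.7 CPM in naive libraries, a fall by 2.06 ± 0.32 on the log2 scale between TLR and CpG libraries (edgeR adjusted p = 0.000752). Btla, an inhibitory receptor of B cells, averaged 152 ± 38.0 CPM in TLR, 329 ± 61.0 CPM in CpG and 853 ± 104 CPM in naive libraries and fell with TLR against CpG (edgeR adjusted p = 0.00244) and with CpG against naive (0.000299). Pdcd1lg2, which encodes PD-L2, averaged 1.53 ± 0.320 CPM in TLR, 4.25 ± 2.06 CPM in CpG and 14.0 ± 1.26 CPM in naive libraries, and Cd276, which encodes B7-H3, 0.160 ± 0.0660, 1.26 ± 0.323 and 4.71 ± 0.697 CPM. Tnfrsf14, the receptor of BTLA, fell between TLR and CpG libraries by 0.93 ± 0.20 (edgeR adjusted p = 0.00515, or 0.0538 without TLR replicate 2). Btnl2 fell by 1.34 ± 0.37 with TLR against naive (edgeR adjusted p = 0.0108), a call lost without TLR replicate 1 (0.0979) and in the RCa18 libraries alone (0.0522).

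Of 10 tested genes among the other ligands of the TNF superfamily, 1 rose (Eda) and 7 fell with CpG (median -1.99), where 21.9% of all tested genes fell. Fasl, among those that fell, had 1 count in CpG and 29 in naive libraries, and natural killer and T cell markers fell in the same comparison. Their part in it was not tested. Between TLR and CpG libraries 2 rose (Tnf and Lta) and 2 fell (Ltb and Eda), with a median of -0.59. That median was -0.07 once genes with 3 counts or fewer in both groups were left out. There, a group with fewer counts than 3 was set at 3. Between TLR and naive libraries 2 rose (Tnf and Eda) and 5 fell (median -1.55). That is 4 of 10 called with TLR against CpG and 7 of 10 with TLR against naive, beside 38.8% and 61.2% of all tested genes. Tnf rose 6.95-fold with TLR against CpG (2.80 ± 0.17, edgeR adjusted p = 6.02e-06). Ltb, which encodes lymphotoxin beta, averaged 10.6 ± 0.457 CPM in TLR, 179 ± 65.4 CPM in CpG and 813 ± 58.8 CPM in naive libraries. Lta, lymphotoxin alpha, averaged 4.06 ± 1.49 CPM in TLR, 1.23 ± 0.206 CPM in CpG and 54.8 ± 2.73 CPM in naive libraries. The call of Eda between TLR and CpG libraries (-1.39 ± 0.42, edgeR adjusted p = 0.0254) was lost without TLR replicate 1 (0.179), TLR replicate 2 (0.0575) or CpG replicate 3 (0.0585), with no filter (0.0583) and in the RCa18 libraries alone (0.126). Tnfsf18, the ligand GITRL, had 1 count in the TLR libraries and 74 in the naive ones, a naive to TLR ratio of 47.0 (exact 95% counting interval 8.18 to 1881).

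In the SLAM family, to which Cd48 belongs, 9 genes were tested. Of these, 2 rose and 7 fell with CpG (median -0.70). With TLR against CpG none rose and 5 fell (median -0.40), and with TLR against naive none rose and 7 fell (median -1.42). The median with TLR against CpG was -0.56 once genes with 3 counts or fewer in both groups were left out. There, a group with fewer counts than 3 was set at 3. The shares of all tested genes that fell were 21.9%, 19.8% and 29.7%. As with the B7 list, all 5 B cell markers fell in both TLR comparisons too, and their part in the SLAM values was not tested. Among the falls with CpG, Slamf8 had 3 counts in CpG and 152 in naive libraries, and Sh2d1a, an adaptor of the family, had none in CpG and 31 in naive libraries. Macrophage, T cell and natural killer markers fell in the same comparison, and their part in these 2 genes was not tested. Slamf1 averaged 6.65 ± 1.96 CPM in TLR, 32.0 ± 8.30 CPM in CpG and 54.9 ± 12.0 CPM in naive libraries. Cd84 averaged 44.9 ± 3.62 CPM in TLR, 81.4 ± 8.05 CPM in CpG and 129 ± 14.6 CPM in naive libraries, and Slamf6 56.4 ± 12.6, 93.0 ± 3.26 and 151 ± 5.99 CPM in the same groups. Both are homophilic receptors of lymphocytes. Ly9 fell by 0.70 ± 0.10 with CpG (edgeR adjusted p = 0.000419), whereas Cd48 changed by 0.05 ± 0.10.

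Of 18 tested genes of CD40 signalling, 2 rose and 10 fell with CpG (median -0.35), 6 rose and 5 fell with TLR against CpG (median 0.18), and 3 rose and 8 fell with TLR against naive (median -0.13). That is 12, 11 and 11 of 18 called, beside 45.5%, 38.8% and 61.2% of all tested genes, and the share with TLR against naive is that of the background. Traf1, an adaptor that NF-kB induces, averaged 289 ± 72.2 CPM in TLR, 180 ± 23.7 CPM in CpG and 53.4 ± 8.07 CPM in naive libraries. Tnfaip3, the NF-kB inhibitor A20, averaged 375 ± 108 CPM in TLR, 248 ± 36.9 CPM in CpG and 102 ± 17.6 CPM in naive libraries. Traf5, an adaptor of CD40, averaged 36.0 ± 5.22 CPM in TLR, 63.4 ± 6.47 CPM in CpG and 132 ± 4.75 CPM in naive libraries, and Ikbkb, a kinase of the NF-kB pathway, 161 ± 6.73, 255 ± 25.3 and 475 ± 31.7 CPM. The NF-kB subunit genes Rel and Nfkb2 fell with CpG (by 0.72 ± 0.14 and 0.99 ± 0.17) and rose with TLR against CpG (0.90 ± 0.16 and 0.97 ± 0.18, edgeR adjusted p = 0.00164 and 0.00249).

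**Figure D5:**
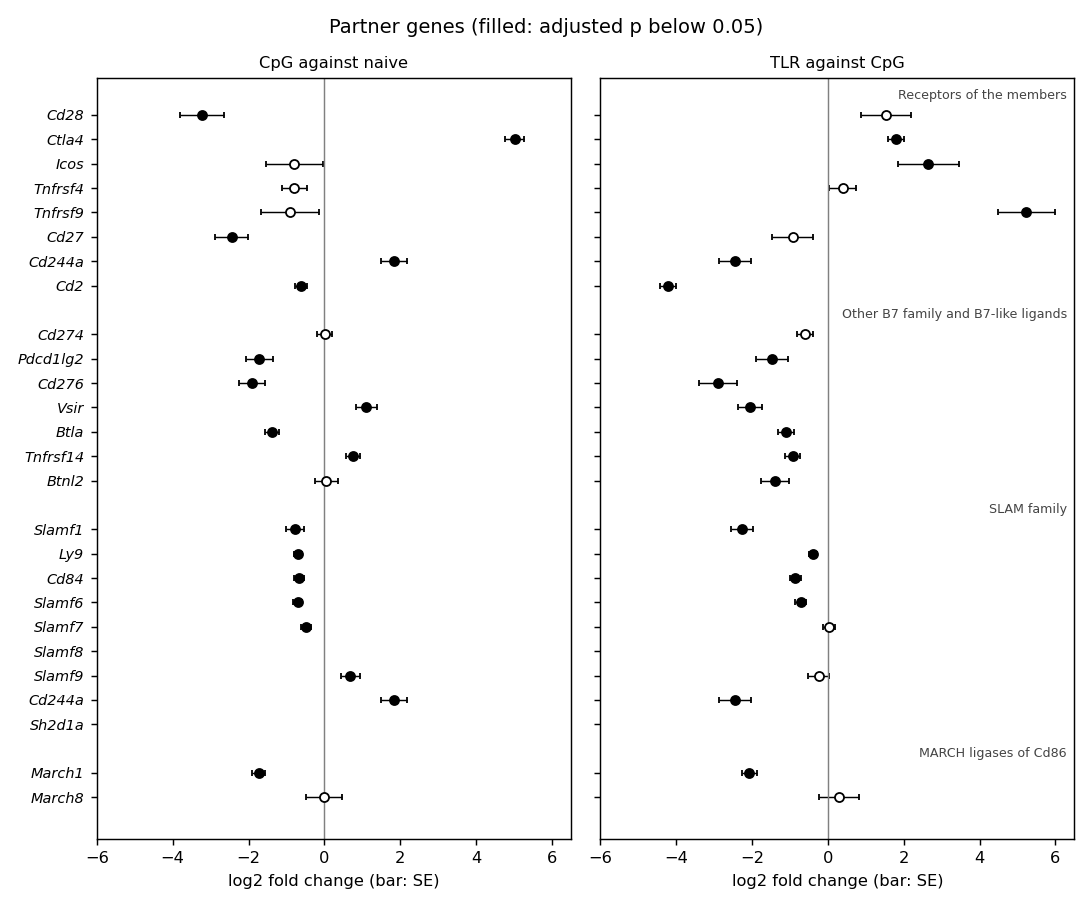
Log2 fold change ± SE of tested partner genes with CpG against naive and TLR against CpG. Shown are the receptors of the members, the B7 list (which also holds Btla and Tnfrsf14), SLAM family genes and MARCH ligases. Filled points have an adjusted p below 0.05, and Cd244a stands in both lists that hold it. Comparisons in which a group has 3 counts or fewer are left out. Tnfrsf9 and Cd2 lie at 5.23 and -4.22 with TLR against CpG, and no point of the B7 list is filled on the right of 0 there.

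Markers of the labelled cell type and of other cells moved with the groups. The 5 B cell markers summed here (Ms4a1, Cd79a, Cd79b, Pax5 and Cd22) were present in every group. Their sum was 2084 and 2185 CPM in TLR, 6894 to 10287 CPM in CpG and 7605 to 8113 CPM in naive libraries, and all 5 fell with TLR against CpG and none was called with CpG against naive. Members that were lower in TLR libraries (Cd80, Icosl and Cd48) stand beside that fall, as do list genes such as March1, Cd2 and Ltb. The part of that fall in any of these genes was not tested. For macrophages and monocytes the summed markers came to 60.0 and 75.0 CPM in TLR and 33.5 to 73.4 CPM in CpG libraries, against 1354, 296 and 164 CPM in the 3 naive libraries. Naive replicate 1 was also the highest naive library for Cd80 and Cd86 and the lowest for Icosl and Cd83. Of 12 such markers 10 fell with CpG and 2 fell with TLR against CpG, Cd163 being at 0 in TLR libraries. Hmox1 alone averaged 50.9 CPM in TLR, 13.7 CPM in CpG and 122 CPM in naive libraries, whereas C1qa averaged 0.529, 1.25 and 56.7 CPM and Vcam1 0.913, 1.14 and 153 CPM in the same groups. Summed dendritic cell markers were 13.2 and 27.2 CPM in TLR, 26.8 to 52.8 CPM in CpG and 32.0 to 76.2 CPM in naive libraries. Clec10a was at 0 in both stimulated groups, and Clec9a, Siglech and Cd209a were at 0 in TLR. Of the 10 dendritic markers 7 fell with CpG, where 21.9% of all tested genes fell, and 1 rose (Ccr9). Ccr9 averaged 14.0 CPM in TLR, 11.9 CPM in CpG and 3.13 CPM in naive libraries. Flt3, not called with CpG, averaged 1.38, 20.5 and 9.81 CPM in the same groups. The part of these cells in the levels of the members was not tested. Natural killer and neutrophil markers summed to at most 2.99 and 0.214 CPM in any stimulated library and to at most 75.9 and 16.3 CPM in any naive one.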

How the data were processed

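RNA was taken from each B cell sample with a poly(A), strand-specific kit, per the labels' protocols. The deposited files hold raw counts per gene, 1 file per library. STAR, HTSeq, edgeR and build mm9 are named in the submitters' processing notes, with versions not given in the sources used here. File names say, further, that counting ignored strand. The summary lines were kept out of library sizes: alignments that were not unique came to 14.7 to 50.2% of a file's sum, reads in no gene to 7.84 to 15.0% and ambiguous reads to 1.29 to 2.15%. Alignments that were not unique split by prefix. They came to 37.5, 47.1 and 50.2% in the RCa1 files of the naive, CpG and TLR groups. In the RCa18 files they came to 14.7 to 21.5%. Symbols came from GENCODE M21 for 32860 of the 37583 identifiers, and the 4723 others held at most 1.01% of the counts.

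The 9 genes and all gene lists were chosen with earlier results of these data known. From the deposited counts, edgeR 4.0.16 (R 4.3.3) with TMM scaling, filterByExpr and a quasi-likelihood fit of 1 mean per group over all 8 libraries gave each change, with Benjamini-Hochberg adjustment over 13964 genes. Intervals are at 95% and are built from the derived SE with a t quantile. The script was tested on simulated data with 1 spread shared by all genes and 200 changed genes. That setting is simpler than these data, so it checks the code and not the error rates here. From each list, the text names up to 4 called genes by smallest p per comparison. Genes most like a member were sought with 0.5 CPM added before log2. Replicate numbers were not taken to pair libraries. Alternatives were DESeq2, other scalings and filters, the prefix as a term or RCa18 alone, only the groups compared, a replicate block, immunoglobulin genes left out, and each library left out in turn. A B cell marker that had been listed and a gene among those most like a member are not reported here, and the marker was left out of the B cell sum.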

Additional observations from a re-analysis of the deposited data

How the results depend on the processing

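Over 21 changes of single members, 378 alternative values were computed: 355 kept their direction and side of the threshold, 13 lost the call, 7 gained one and 3 turned their sign. Leaving out each library in turn moved Cd80 with CpG against naive between -0.024 (without CpG replicate 3) and 0.86, and Tnfsf9 in the same comparison between -0.19 (without CpG replicate 2) and 0.47, with -0.03 without naive replicate 1. None of these values was called, and the cause was not tested. Of 1097 values for genes named from the lists, 1089 kept direction and call and 8 lost the call. Leaving out each library gave 3516 to 5625 genes called between TLR and CpG libraries (3516 without TLR replicate 1, against 5417 with all), 4888 to 6738 between CpG and naive and 6990 to 9071 between TLR and naive. The members called as lower between TLR and CpG libraries numbered 1 to 3, with 1 left without TLR replicate 1. The mean log2 ratio of Cd86 to Cd80 differed by 4.80 to 5.62 between TLR and CpG libraries, by -3.15 to -2.40 between CpG and naive and by 2.07 to 2.86 between TLR and naive.

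With the replicate number as a block, 5541 genes were called between TLR and CpG libraries, 6665 between CpG and naive and 8602 between TLR and naive. The block ended the call of Icosl between TLR and CpG libraries (log2 fold change -0.60, edgeR adjusted p = 0.0584) and gave one to Cd40 (-0.40, edgeR adjusted p = 0.0346). The lowest correlation of same-numbered libraries, as deviations from group means, was 0.00359 over 7 pairs, and 6 of 8 libraries correlated best with their own number. Replicate 1 is also the only one with prefix RCa1, so its matches cannot be told from the prefix. The deviations of the 2 TLR libraries are opposite by construction (0.325 and -0.325 with CpG replicate 1). These correlations therefore cannot decide whether the numbers pair the libraries. Depth limits what can be said of Tnfsf4 and Cd70, which stayed uncalled with no filter on low counts, and of Cd80 in TLR libraries.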
